A study of Mus musculus with 3 samples.

Results

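Transcripts of 5 angiopoietin-like genes, *Angptl1*, *Angptl2*, *Angptl4*, *Angptl6* and *Angptl7*, were followed through the cell populations of the mouse iridocorneal angle and limbus, the ring of tissue at the edge of the cornea that drains aqueous humor. The genes were taken by symbol from the 31053 genes counted, and their UMIs (unique molecular identifiers, each standing for 1 captured transcript) were read in the 26008 cells that carry a deposited cluster label.

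The study made 3 droplet libraries, each pooled from 2 to 3 mice (4 to 6 eyes) at 6 weeks of age and from a mixed strain bred to ICR mice for 2 generations so that the litters were albino. Both control libraries came from mice with the genotype Angpt1 flox/flox. The *Angpt1*ΔNC library came from mice with the genotype Angpt1 flox/flox;Wnt1Cre+, in which the Wnt1 promoter drives Cre in the neural crest, the embryonic source of the drainage tissue and corneal stroma. The controls therefore carry the floxed alleles too and differ by the absence of Cre, and cells of another origin lie outside the reach of this Cre. The comparison asks which genes differ in an eye whose neural crest cells lack ANGPT1, the ligand of the TEK receptor on the endothelium of Schlemm's canal.

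In the order control 1, control 2 and *Angpt1*ΔNC, the libraries held 9076, 10160 and 6772 labelled cells with medians of 6329.5, 6393.5 and 7444 UMIs. *Angpt1* itself was detected in 17.2%, 17.3% and 0.340% of the cells, the order that the genotypes give. Each pair of libraries shared 25, 14 or 13 cell barcodes. The labels describe pools of both sexes, but *Xist*, which is transcribed in female cells, was detected in 0.0331% and 0.0197% of control cells and in 58.7% of *Angpt1*ΔNC cells, so sex and genotype cannot be told apart over all cells. Cells that could be typed as male made up 69.7%, 72.1% and 29.4%, and each fit between genotypes was repeated in them. With 2 control pools and 1 mutant pool, the spread behind the p-values is estimated largely over all genes of a fit. The mutant pool is assumed to vary alike, and a small p-value does not show that the 2 controls lie close for that gene.

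Angiopoietin-like proteins are secreted and share with the angiopoietins a coiled-coil stretch and, in most members, a fibrinogen-like domain, but they do not bind the TEK receptor. ANGPTL4 inhibits lipoprotein lipase and is induced by fasting, hypoxia and PPAR signaling. ANGPTL7 is known from the cornea and trabecular meshwork, where steroids raise it, and it has been linked to intraocular pressure. ANGPTL2 binds integrins and immune receptors in inflamed tissue, while ANGPTL1 and ANGPTL6 are less well understood.

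The labels are the authors' clusters, with numbers between 1 and 25 or the names TM1 to TM11, and with separate endothelial names, and 32 of 35 held at least 20 cells in every library. They were made from the expression of the same cells, so differences of a gene between labels are given without a test, and neighbours in the order are told apart where every library of one lies above every library of the other. A level is the mean over cells of UMIs per 10,000 UMIs of the cell. UMIs count 3′ ends, and levels of different genes are not compared. Summed counts of a label do not tell fewer transcripts in each cell from fewer cells that transcribe the gene. The markers bear out the names used here: TM1 held *Kera*, the keratocyte proteoglycan, at 65.7, 59.6 and 15.8 UMIs per 10,000, clusters 8 and 9 held melanocyte markers, and the summed Trabecular meshwork markers (*Myoc*, *Chil1*, *Chad*, *Nell2*, *Tnc* and *Angpt1*) stood at 130, 131 and 59.9 in TM4. Corneal and limbal epithelium markers summed to 192, 184 and 163 in cluster 4, Glia markers to 75.3, 86.8 and 104 in cluster 10, Pericytes markers to 99.1, 112 and 91.6 in cluster 20 and Immune cells markers to 142, 158 and 134 in cluster 24, while the Ciliary epithelium markers of cluster 7 summed to no more than 16.1. The name of cluster 7, ciliary epithelium, is that of the study.

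*Angptl7* was the member most concentrated in 1 population, and 79.3%, 78.0% and 87.1% of its UMIs lay in TM1. Its level there was 31.1, 60.9 and 43.3, above every other label in every library, with the mutant between the controls and the controls 1.96 times apart. In cluster 13, stromal cells that also carry *Kera*, it was 4.34, 6.45 and 3.51, and in TM11 2.16, 5.48 and 1.24. These 2 labels were followed by TM5 with 3.24, 4.32 and 0.526, TM4 with 2.57, 3.98 and 1.20, and TM10 with 0.237, 0.637 and 0.0393. Below TM1, no 2 neighbours of cluster 13, TM11, TM5 and TM4 were separated in all libraries. The paper places the set of trabecular markers in TM4 and TM5, and fibroblast markers in TM10 and TM11. It proposes that TM10 is corneal stroma, whose cells carry *Cd34*, and that TM11 holds fibroblast-like beam cells of the trabecular meshwork. In TM11 the level of the trabecular marker *Chil1* was 22.2, 6.10 and 8.61, while that of *Myoc* was 1.12, 0.176 and 0.0556.

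Nearly every TM1 cell had an *Angptl7* UMI, 96.2%, 98.6% and 95.7%, with a median of 33, 66.5 and 38 UMIs in the cells that had one. In TM4 the share was 29.0% (exact 95% interval 23.8 to 34.7), 33.6% (28.6 to 39.0) and 14.1% (10.5 to 18.5), and in TM5 it was 44.4%, 47.1% and 18.3%, so that the mutant lay below both controls in each. The cells with a UMI were not alike, for the highest count in a TM4 cell was 103, 112 and 66. Intervals cover counting error only. As a background, monocytes of cluster 24 showed 2.14%, 3.19% and 1.75% at median depths of 6577, 6554 and 6903 UMIs, and limbal epithelium of cluster 4 showed 0.725%, 0.789% and 0.936% at 14480.5, 12359 and 14092. After each cell was thinned to 1000 UMIs, the TM4 share was 11.9%, 16.1% and 6.43% and the TM5 share 14.8%, 20.2% and 5.56%.

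**Figure D1:**
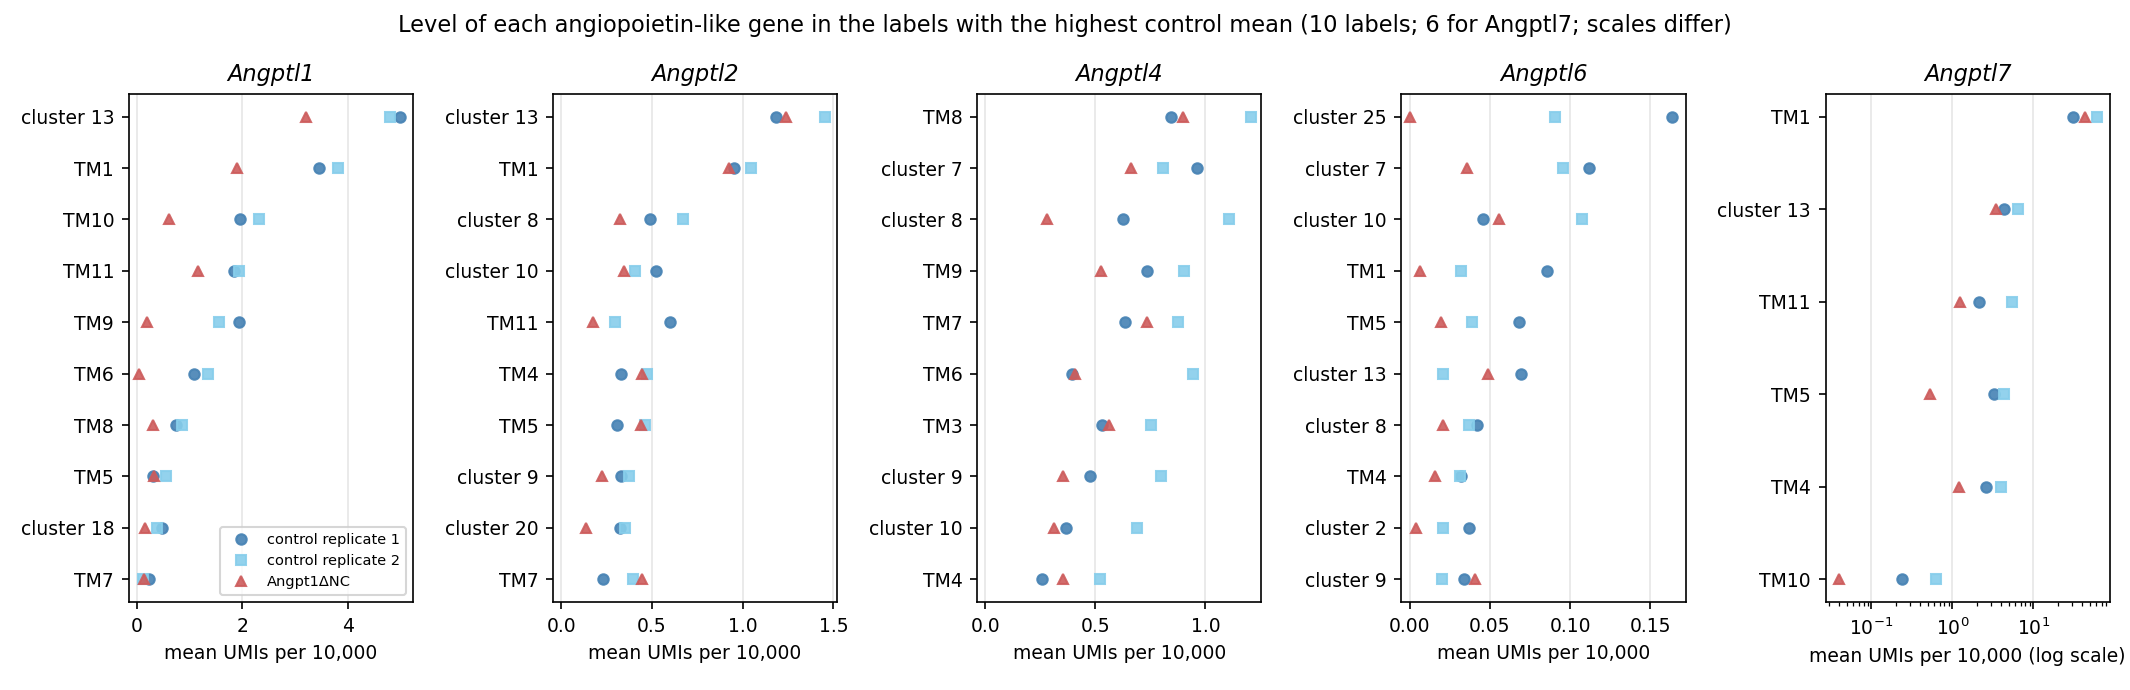
Mean UMIs per 10,000 of each angiopoietin-like gene (horizontal axes, scales differ, logarithmic for Angptl7) in the labels with the highest control mean, with 1 point for each of the 3 libraries. Angptl7 lies at 31.1 to 60.9 in TM1 and at no more than 6.45 in any other label, while the highest labels of Angptl4 overlap.

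**Figure D2:**
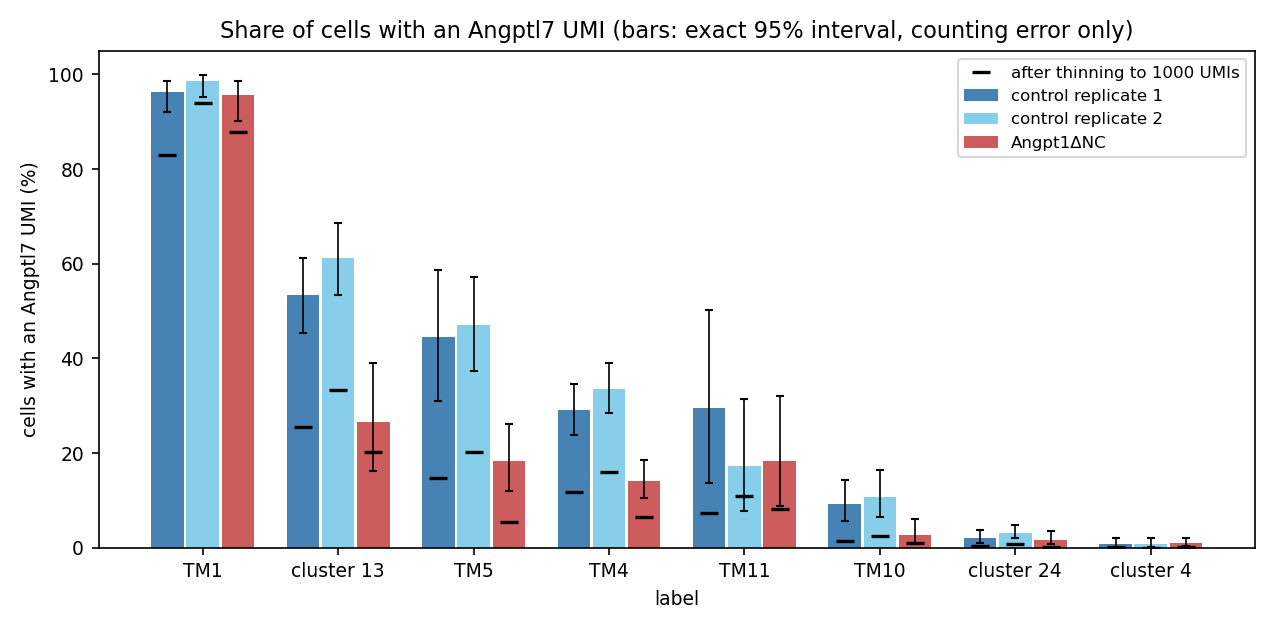
Percent of cells with at least 1 Angptl7 UMI by label, with a bar for each library, its exact 95% interval and a dash for the share after thinning to 1000 UMIs. TM1 is above 95% in all libraries, and in TM4 and TM5 Angpt1ΔNC lies below both controls.

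The gene is on the minus strand of chromosome 4 from 148495183 to 148500460 (GRCm38) and has 5 exons. It lies inside *Mtor*, which runs on the plus strand, and their exons share no bases. The 250 bases before its RefSeq start, at chr4:148500463-148500712 on the minus strand, are shown as the sequence upstream of the most label-restricted member, and they overlap no annotated exon.

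Angptl7, upstream: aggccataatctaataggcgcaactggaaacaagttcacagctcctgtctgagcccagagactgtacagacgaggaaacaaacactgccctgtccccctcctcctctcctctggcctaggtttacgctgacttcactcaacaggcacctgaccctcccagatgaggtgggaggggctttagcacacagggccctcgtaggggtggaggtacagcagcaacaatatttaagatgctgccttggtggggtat

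None of 6 motifs searched on both strands is in this stretch. These were, each with the share of 32851 RefSeq stretches of the same length that hold it, the hypoxia response core ACGTG (16.6%), the glucocorticoid receptor letters AGAACA (16.1%), the forkhead core GTAAACA (3.17%), the cyclic AMP response letters TGACGT (6.47%), the PPAR letters AGGTCA (14.0%) and the TATA box TATAAA (12.4%). The GC content is 54.4%, against a median of 52.4%.

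Genotype was compared on UMIs summed per library with edgeR's quasi-likelihood test, with p-values adjusted over all genes of the fit and called below 0.05. Over TM1 to TM11 together, *Angptl7* stood at 3.84, 5.74 and 3.52 UMIs per 10,000, a log2 fold change of -0.45 (SE 0.24, adjusted p = 0.284). This sum is mostly TM1, where the change was -0.16 (SE 0.23, adjusted p = 0.826), and it ran from -0.62 without control 1 to 0.53 without control 2. Without TM1, an alternative chosen after seeing the data, the sum fell by 1.27 on the log2 scale with an adjusted p of 0.0352. In cluster 13 the change was -0.09 (SE 0.23, adjusted p = 0.924), while the share of cells with a UMI was 53.3%, 61.2% and 26.6%.

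*Angptl7* was lower in *Angpt1*ΔNC in 4 of 9 labels that could be tested, of which TM11 was set by rule and TM4, TM5 and TM10 were named after their values were seen. The summed UMIs were 704, 1292 and 372 in TM4, 235, 557 and 80 in TM5 and 32, 64 and 5 in TM10, and the mutant lay below both controls in each as UMIs per 10,000. The log2 fold change was -1.47 in TM4 (SE 0.27, adjusted p = 0.00239), -2.84 in TM5 (SE 0.30, adjusted p = 4.31e-18) and -3.60 in TM10 (SE 0.50, adjusted p = 1.14e-09). In TM11 the summed UMIs per 10,000 were 2.23, 6.46 and 1.56, so that the controls were far apart, and the change was -1.51 (SE 0.37, adjusted p = 0.00446) but -0.48 without control 2. In TM10, 1 cell of control 2 held 30 of its 64 UMIs, and the mutant's share of 2.66% lay within the range of cluster 24. The TM5 and TM10 calls held in all 5 alternatives, whereas that of TM4 ended with DESeq2 and that of TM11 with DESeq2 and with equal numbers of cells. Genes called made up 6.52% of those tested in TM4, 2.48% in TM5, 11.6% in TM10, 2.16% in TM11, 4.79% in TM1 and 3.91% in cluster 13, and 8.97% over TM1 to TM11.

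The difference between labels was tested in a fit with the library as a block, and the fit and its pairs of labels were chosen after seeing the data. This fit uses summed UMIs, which for *Angptl7* in cluster 13 stood at 4.37, 6.90 and 5.12 per 10,000. The mean level over cells there was 4.34, 6.45 and 3.51, with the mutant below both controls. The share of positive cells was below both controls in cluster 13 as in TM4. The log2 effect on *Angptl7* in TM4 minus that in TM1 was -1.36 (SE 0.21, adjusted p = 0.00306, 1.46% of genes called), and that in TM5 differed from TM1 by -2.76 (SE 0.23, adjusted p = 6.89e-30, 1.34% called). TM10 differed from TM1 by -3.48 (SE 0.30, adjusted p = 0.000213, 1.43% called), and TM4 from cluster 13 by -1.34 (SE 0.22, adjusted p = 5.54e-07, 2.33% called). For cluster 13 against TM1 the difference was -0.00 (SE 0.22, adjusted p = 1.00, 0.292% called).

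**Figure D3:**
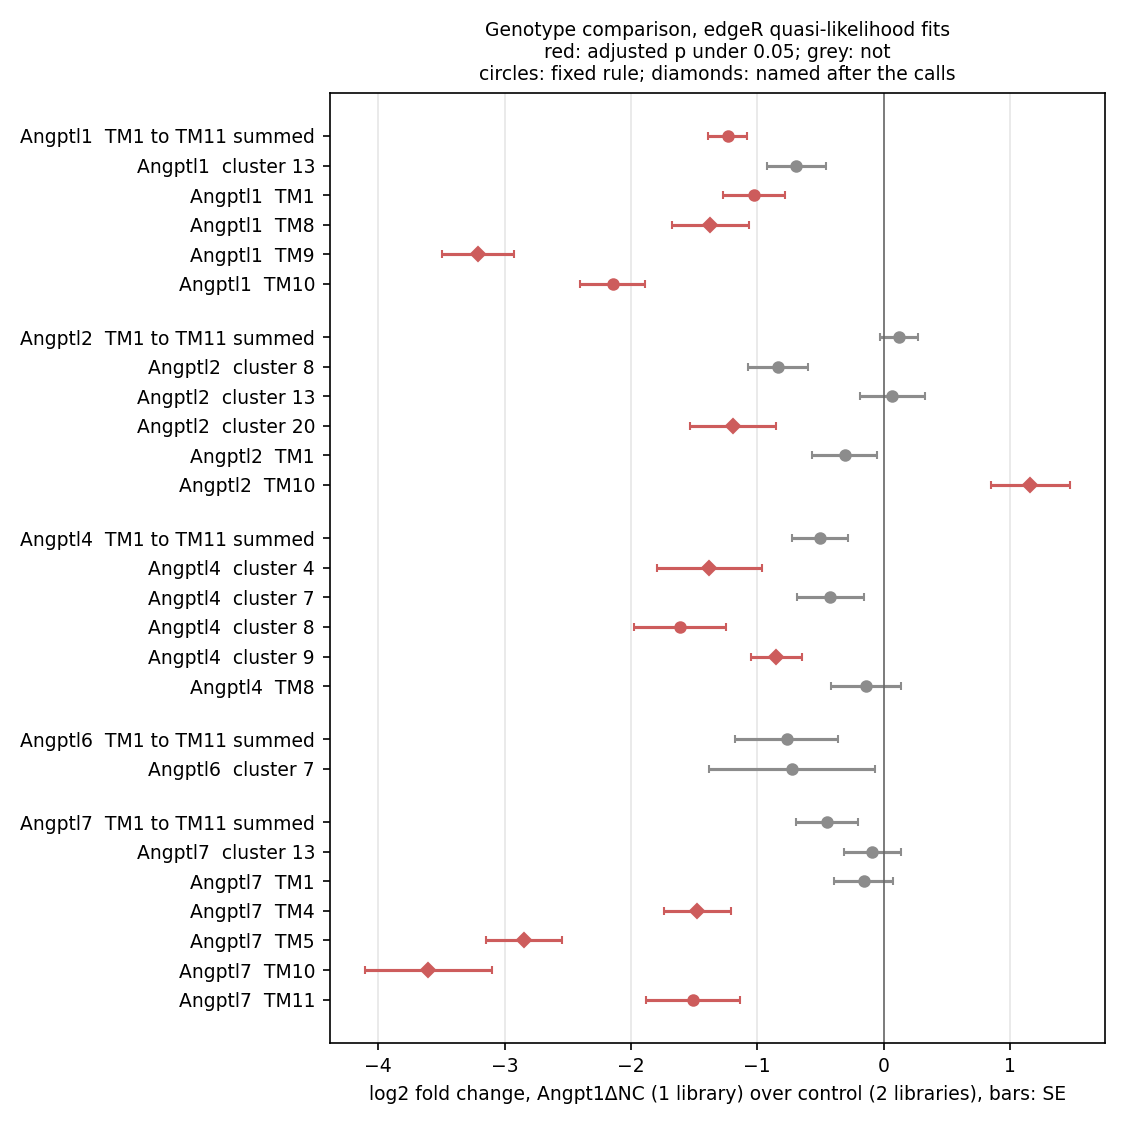
Log2 fold change of Angpt1ΔNC (1 library) over control (2 libraries) for each angiopoietin-like gene and label, with bars for the SE, circles for labels set by rule and diamonds for labels named after their calls. Of the single-label calls, 12 lie below 0 and 1 above it, and the values of Angptl7 in TM1 and cluster 13 lie near 0 while that in TM5 is -2.84.

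Other genes of the same labels moved with *Angptl7*. In TM4, *Myoc*, which encodes the secreted glycoprotein myocilin, changed by -1.37 on the log2 scale (adjusted p = 0.000172, edgeR), *Chil1* by -0.93 (adjusted p = 0.00683) and *Chad* by -0.80 (adjusted p = 0.0214), while the summed Keratocytes markers stood at 199, 227 and 395 UMIs per 10,000 and 2 of 5 keratocyte genes were higher. The summed Trabecular meshwork markers of TM5 were 44.3, 53.5 and 19.6, and there *Chil1* changed by -1.87 and *Chad* by -1.54, both called, whereas *Myoc*, at 6.83, 13.5 and 7.23 UMIs per 10,000, changed by -0.53 (adjusted p = 0.382, edgeR) and was not. In TM10 the Trabecular meshwork markers summed to 10.5, 10.3 and 4.73. The Keratocytes sum of TM4 was mostly *Dcn*, at 178, 203 and 353. *Kera* stood at 0.0628, 0.241 and 0.233 in TM4, and its change of -0.31 was not called. Of 12 early stress genes, which rise during tissue dissociation, 0 were lower in TM4 and 3 in TM5. The part of these values in the *Angptl7* changes was not tested. *Kera* itself fell by 1.93 on the log2 scale in TM1 (adjusted p = 1.26e-11), the label where *Angptl7* was not called.

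Cells were therefore split by *Myoc*. Among TM4 cells with a *Myoc* UMI, *Angptl7* was detected in 76 of 250 (30.4%), 102 of 302 (33.8%) and 26 of 231 (11.3%), and among those without in 7 of 36 (19.4%), 9 of 28 (32.1%) and 18 of 80 (22.5%). The mutant thus lay below both controls in the cells with *Myoc* and between them in the cells without. *Myoc* was itself called lower in TM4, so genotype also moves which cells fall on each side, and the split does not separate the change of *Angptl7* from that of *Myoc*. In TM5 the shares were 47.2%, 45.8% and 3.70% with *Myoc* and 38.9%, 48.9% and 29.2% without, with the mutant below both controls in each.

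**Figure D4:**
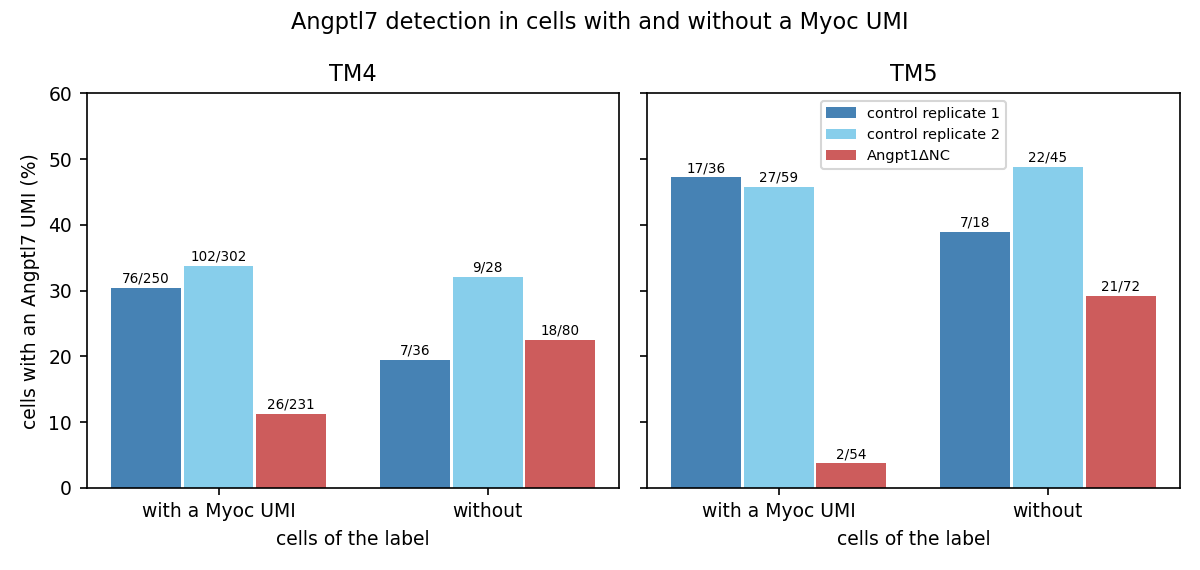
Percent of TM4 and TM5 cells with an Angptl7 UMI, split by whether the cell has a Myoc UMI, with 1 bar for each library and, above it, the positive cells of all cells in the split. In TM5 cells with Myoc the share is 3.70% in Angpt1ΔNC against 47.2% and 45.8% in the controls.

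*Angptl1* was spread over several stromal labels. Its level was highest in cluster 13 with 4.99, 4.80 and 3.21, then in TM1 with 3.46, 3.82 and 1.89 and in TM10 with 1.95, 2.32 and 0.599, and these neighbours overlapped once the mutant was included. In the controls alone the order cluster 13, TM1 and TM10 held in each library. TM11 followed with 1.85, 1.93 and 1.15, TM9 with 1.94, 1.55 and 0.184, TM6 with 1.09, 1.35 and 0.0433 and TM8 with 0.737, 0.861 and 0.300. In each of these 7 labels the mutant lay below both controls. Among the 16 labels with at least 10 *Angptl1* UMIs it lay below both in 8, above both in 2 and between them in 6. In cluster 24 the share of positive cells was 0%, 0.152% and 0%, against 80.6%, 83.6% and 65.6% in cluster 13.

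Over TM1 to TM11, *Angptl1* held 1609, 1770 and 546 UMIs and fell by 1.23 on the log2 scale (SE 0.15, adjusted p = 0.00240, edgeR), a call that held in all 6 alternatives. It was called in 4 of 16 labels tested, all lower. TM6, with 48, 56 and 1 UMIs, was not called (adjusted p = 0.102, edgeR) but was called in 4 of 5 alternatives, and no fold is given because it rests on 1 UMI. In TM9 its UMIs were 206, 249 and 38 (log2 fold change -3.21, SE 0.28, adjusted p = 1.06e-26), and in TM10 255, 276 and 77 (-2.15, SE 0.26, adjusted p = 1.63e-12), and both calls held in all 5 alternatives. In TM1 the change was -1.03 (SE 0.24, adjusted p = 0.00157), lost with DESeq2 and with equal numbers of cells, and in TM8 -1.37 (SE 0.30, adjusted p = 0.0321), lost with DESeq2 and in male-typed cells. TM8 and TM9, stroma of the uvea in the study's naming, were named after their values were seen. In cluster 13, its highest label, the change of -0.69 (SE 0.23, adjusted p = 0.0717) was not called. Of all genes tested, 15.1% were called in TM9 and 3.58% in TM8.

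TM4 did not follow the same course, with an *Angptl1* level of 0.127, 0.139 and 0.184, the mutant above both controls. Its log2 fold change in TM4, 0.37 (SE 0.30), was not called. TM5, where the paper also places the set of trabecular markers, did not share this, with a change of -0.89 (SE 0.37) that was not called. The effect in TM5 minus that in TM1 was 0.18 (SE 0.39), not told apart. The effect in TM4 minus that in TM1 was 1.42 (SE 0.30, adjusted p = 0.0323, edgeR with a library block), and minus that in cluster 13 it was 1.11 (SE 0.33, adjusted p = 0.0370). TM9 differed from TM1 by -2.16 (SE 0.32, adjusted p = 0.0203, 0.714% of genes called), while TM10 against TM1, at -1.13 (SE 0.29, adjusted p = 0.118), was not told apart. In TM9 the summed Trabecular meshwork markers, *Angpt1* among them, were 2.43, 3.92 and 0.0772. Of the 12 early stress genes, 8 were lower in TM9 and 6 in TM10, and their part in these values was not tested.

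*Angptl1* is on the plus strand of chromosome 1 from 156838562 to 156861078 with 5 exons, inside the minus-strand gene *Ralgps2*, whose exons do not overlap its own. *Ralgps2* reached no more than 0.108 UMIs per 10,000 in the labels examined.

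*Angptl2* was found in stroma, melanocytes and glia. Its level was 1.18, 1.45 and 1.24 in cluster 13 and 0.951, 1.04 and 0.924 in TM1, and each of these labels lay above the next in every library. Cluster 8 (melanocytes) held 0.488, 0.671 and 0.325, and cluster 10 (glia) held 0.520, 0.408 and 0.343, and these neighbours overlapped. Positive cells of cluster 13 made up 46.7%, 51.5% and 39.1%, and those of cluster 24 0.194%, 0.759% and 1.25%. Over TM1 to TM11 the log2 fold change was 0.12 (SE 0.15, adjusted p = 0.672, edgeR), with the mutant above both controls at 0.353 against 0.309 and 0.342 UMIs per 10,000.

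Single labels of *Angptl2* went both ways. The change was 0.07 in cluster 13 (SE 0.26), -0.31 in TM1 (SE 0.26) and -0.83 in cluster 8 (SE 0.24, adjusted p = 0.0575), none of which was called. Among 21 labels tested, 2 were called and named after their values were seen. In TM10 its UMIs were 27, 25 and 74 (log2 fold change 1.16, SE 0.31, adjusted p = 0.00416), and in the pericytes of cluster 20 they were 74, 87 and 15 (-1.19, SE 0.34, adjusted p = 0.0415, 7.67% of genes called). Both calls ended with DESeq2, and that of cluster 20 also with equal numbers of cells and in male-typed cells. In cluster 20, 3 of the 12 early stress genes and 3 of 4 keratocyte genes tested were lower, the latter with a median of -1.83 against -0.02 over all genes, and the summed Keratocytes markers were 9.06, 8.46 and 3.32. Most of that sum was *Dcn*, at 6.51, 6.11 and 2.24, and *Kera* stood at 0.0223, 0.0287 and 0.00915. The part of these values in the *Angptl2* change was not tested. The effects in TM10 and cluster 20 differed by 2.32 (SE 0.40, adjusted p = 0.0269, 1.47% of genes called).

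In TM10, therefore, *Angptl1* and *Angptl7* fell while *Angptl2* rose in the same 194, 167 and 188 cells. Other markers of TM10 also went both ways. *Kera* changed by -3.43 and *Chil1* by -3.21, both called, and of 5 keratocyte genes 1 was higher and 1 lower, with *Aldh3a1* at 0.429, 0.251 and 1.59 UMIs per 10,000. The summed Adventitial fibroblasts markers, *Clec3b* and *Pi16* among them, stood at 67.3, 58.5 and 88.0. The part of these values in the changes of the members was not tested.

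*Angptl2* is on the plus strand of chromosome 2 from 33216069 to 33247717 with 5 exons, inside the minus-strand gene *Ralgps1*, which reached no more than 0.0345 UMIs per 10,000 in the labels examined. The 250 bases before its RefSeq start (chr2:33215711-33215960, plus strand) overlap no annotated exon, are richer in GC at 66.8%, and hold ACGTCA, the reverse complement of TGACGT, from 166 to 161 bases before the start, here in capitals.

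Angptl2, upstream: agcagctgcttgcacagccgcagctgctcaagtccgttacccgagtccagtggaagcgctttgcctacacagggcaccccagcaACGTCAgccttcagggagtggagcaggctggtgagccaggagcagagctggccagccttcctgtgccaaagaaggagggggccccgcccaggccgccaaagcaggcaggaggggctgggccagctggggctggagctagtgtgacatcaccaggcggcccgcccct

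*Angptl4* had no single leading label. Its level was 0.844, 1.21 and 0.899 in TM8, 0.959, 0.807 and 0.662 in cluster 7 (ciliary epithelium), 0.626, 1.11 and 0.280 in cluster 8, and 0.737, 0.901 and 0.527 in TM9, and none of these neighbours was separated in all libraries. It was thus found in uveal stroma, melanocytes and ciliary epithelium, while the limbal epithelium of cluster 4 held 0.114, 0.0399 and 0.0217. Control 2 was above control 1 in TM8, TM9 and cluster 8 and below it in cluster 7. Among the 28 labels with at least 10 *Angptl4* UMIs the mutant lay below both controls in 14, above both in 3 and between them in 11.

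In the melanocytes of cluster 8, 30.3%, 42.0% and 17.4% of cells had an *Angptl4* UMI, and the summed UMIs were 499, 811 and 139. The gene fell by 1.61 on the log2 scale (SE 0.36, adjusted p = 0.0264, edgeR), from -2.04 without control 1 to -1.03 without control 2. In cluster 9, also melanocytes and named after its values were seen, UMIs were 191, 389 and 78, with a change of -0.85 (SE 0.20, adjusted p = 0.000655) and of -0.33 without control 2. In cluster 4, likewise named afterwards, 57, 25 and 23 UMIs gave -1.38 (SE 0.41, adjusted p = 0.0108), and -0.66 without control 1. All 3 calls ended with DESeq2, those of clusters 9 and 4 also in male-typed cells, and that of cluster 4 without the filter on low counts. These were the 3 calls among 24 labels tested, beside 8.74% of genes called in cluster 8, 12.2% in cluster 9, 11.9% in cluster 4 and 0.788% in cluster 7.

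The change was -0.14 in TM8 (SE 0.28, adjusted p = 0.851, edgeR) and -0.42 in cluster 7 (SE 0.27, adjusted p = 0.559), and the effect in cluster 8 differed from that in TM8 by -1.34 (SE 0.27, adjusted p = 0.000853, 4.24% of genes called). Over TM1 to TM11, with 0.417, 0.588 and 0.356 UMIs per 10,000, it was -0.50 (SE 0.22, adjusted p = 0.197). In cluster 8, 9 of the 12 early stress genes were also lower, *Hspa1a* among them with 1.13, 0.825 and 0.355 UMIs per 10,000, and in cluster 9, 9 were lower and 1 higher. In cluster 4, 4 were lower and 1 higher. Their part in the *Angptl4* change was not tested. Melanocyte markers of cluster 8 summed to 455, 511 and 558 (Melanocytes list).

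*Lpl*, the lipase that ANGPTL4 inhibits, moved further in the same cells. It was also lower in labels where *Angptl4* was not called, with log2 changes of -5.94 in TM9, -2.16 in TM10 and -1.15 in cluster 20. In TM4 and TM5 *Lpl* changed by -0.06 and -0.93. Its level in cluster 8 was 4.31, 4.36 and 0.143, with closely matched controls, and it changed by -4.68 (SE 0.17, adjusted p = 9.66e-07, edgeR). In cluster 9 it was 0.974, 1.14 and 0.0183 (log2 fold change -5.72, SE 0.36, adjusted p = 1.48e-52). In TM8, where *Angptl4* was not called, *Lpl* was 0.412, 0.313 and 0.0483 (-3.12, adjusted p = 0.0104), and in cluster 7 it was 1.74, 2.12 and 0.978 (-0.62, SE 0.23, adjusted p = 0.293).

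**Figure D5:**
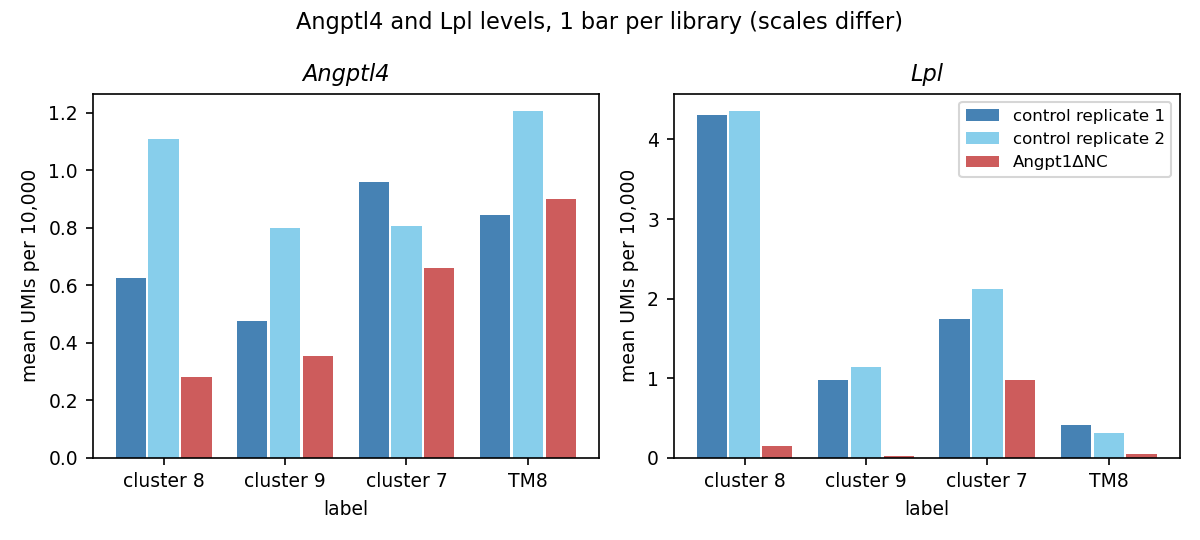
Mean UMIs per 10,000 of Angptl4 (left) and Lpl (right) in 4 labels, with 1 bar for each library and axes that start at 0. Both genes are lowest in Angpt1ΔNC in clusters 7, 8 and 9. Lpl falls from 4.31 and 4.36 to 0.143 in cluster 8 and from 0.974 and 1.14 to 0.0183 in cluster 9.

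*Angptl4* lies on the minus strand of chromosome 17 from 33773750 to 33781830 with 7 exons and overlaps no other annotated gene.

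*Angptl6* was close to the detection limit, with 220, 159 and 95 UMIs among all labelled cells. Its highest control mean, in the monocytes of cluster 25, rested on 1, 1 and 0 UMIs, the 0 allowing up to 5.17% of 58 cells with a UMI, which at medians of 1456, 1728 and 1321 UMIs does not bound the cells that express the gene. In cluster 7 the level was 0.112, 0.0953 and 0.0359 from 26, 5 and 9 UMIs, and in cluster 10 it was 0.0458, 0.107 and 0.0554. It never reached 0.5 UMIs per 10,000 in a label. None of 7 labels tested was called, and the changes were -0.77 over TM1 to TM11 (SE 0.41, adjusted p = 0.276, edgeR) and -0.72 in cluster 7 (SE 0.66, adjusted p = 0.696), so a difference was not detectable at this depth. The gene is on the minus strand of chromosome 9 from 20873808 to 20879727 with 6 exons and overlaps *A230050P20Rik* on the plus strand. Whether their exons share bases was not examined.

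Across the 5 genes, 13 of the 77 tests of a member in a single label were called, 12 lower and 1 higher. In the labels with a call, 2.16% to 15.1% of all genes were called, and these went both ways, as in cluster 8 with 521 higher and 478 lower. Among the members, the call in the higher direction was that of *Angptl2* in TM10. The range covers only labels picked for having a call of a member, and cluster 7, which had none, stood below it. The 13 of 77 therefore cannot be set against this range.

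Similarity of pattern was measured as Pearson's r over 32 labels of the control mean, as log2(level + 0.1), among 7066 genes. The labels share libraries, depth and free RNA, and no p is given. *Angptl7* was most like *Kcns1* (0.92), *Fgf21* (0.90) and *Kera* (0.89), and *Angptl1* most like *Tac1* (0.88), *Adamts2* (0.85) and *Mmp2* (0.84). For *Angptl2* the closest were *Tvp23b* (0.84), *Abhd14a* (0.83) and *Ift20* (0.82), and for *Angptl4* *Acot1* (0.83), *Akr1b8* (0.77) and *Lhfpl2* (0.77). For *Angptl6*, compared with 7067 genes, they were *2310039H08Rik* (0.80), *Dhrs1* (0.78) and *Hsbp1* (0.77). Between members, *Angptl1* with *Angptl7* gave 0.67, *Angptl2* with *Angptl7* 0.65, *Angptl1* with *Angptl2* 0.55 and *Angptl4* with *Angptl7* -0.12.

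The pathways around these genes were followed over TM1 to TM11, where 482 of 13942 genes tested were higher and 769 lower with a median log2 fold change of -0.01. Among 9 tested genes of the lipoprotein lipase axis, 1 was higher (*Apoc1*, 1.32) and 2 lower (*Lpl*, -1.68, and the endothelial lipase gene *Lipg*, -1.16), and the list's median was 0.00. Among 13 PPAR targets none was higher and 4 were lower, *Ech1* (-1.19), *Pdk4* (-1.13), *Fabp4* (-1.62) and *Hadha* (-0.55), with a median of -0.33. Of 15 hypoxia targets 2 were higher (*Ndrg1*, 0.84, and *Slc2a1*, 0.64) and 1 lower (*Egln3*, -1.60), and the median was -0.07. *Zbtb16* (1.98) was the higher and *Myoc* (-0.78) the lower gene among 12 glucocorticoid targets (median -0.11). Early stress genes had 2 of 12 lower (*Junb*, -0.88, and *Dnajb1*, -0.75) with a median of -0.20, and keratocyte genes 1 of 5 (*Kera*, -2.13) with a median of -0.21. That median is the value of *Ktn1*, which does not mark keratocytes here. It stood at 0.425, 0.385 and 0.447 UMIs per 10,000 in TM1 and at 4.28, 4.74 and 5.34 in cluster 8. The list of angiopoietins and TIE receptors also holds the phosphatase gene *Ptprb* and the matrix protein gene *Svep1*. Of the list's 7 genes, 3 were lower, the deleted *Angpt1* (-7.10), *Angpt4* (-1.24) and *Tie1* (-2.60). The list's median of 0.10 is the value of *Ptprb*. No tested gene was called among 6 receptors and partners (median -0.07).

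Ranked by control mean, receptors and partners of these proteins peaked in different labels, some of them labels where members were high. *Cdh11*, a mesenchymal cadherin, was highest in TM9 with 2.84, 3.39 and 2.94, *Itgav*, an integrin subunit, in cluster 18 with 2.84, 3.11 and 2.36, and *Lmf1*, a factor that lipases need to mature, in cluster 8 with 0.292, 0.343 and 0.273. *Lilrb4a*, an immune receptor of the leukocyte immunoglobulin-like family, was highest in cluster 24 with 2.07, 1.77 and 1.42, and *Pirb* of the same family in cluster 23 with 0.991, 0.487 and 0.555. *Gpihbp1*, which holds lipoprotein lipase on the endothelial surface, was highest in EC4 with 1.65, 1.77 and 1.08. In *Angpt1*ΔNC alone, *Gpihbp1* was higher in EC3, at 1.51, and *Itgav* was higher in TM9, at 2.64. *Itgb1*, another integrin subunit, was highest in the smooth muscle of cluster 19 with 9.27, 9.22 and 6.29.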

How the data were processed

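Limbal and iridocorneal tissue was measured by droplet single-cell RNA-seq in 3 pooled libraries. The authors made the deposited UMI counts with Cell Ranger (3.0.2 in the matrix headers, 2.1.1 in the submitters' processing notes) on mm10 and labelled cells with Seurat 3.1.3. Cells were kept where they carry a deposited label, and no further filter or doublet caller was run. These labels come from integrated expression in which *Angptl1*, *Angptl2*, *Angptl4* and *Angptl7* took part. The integrated values and the authors' other columns were not used as levels.

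UMIs were summed per library and label and tested with edgeR 4.0.16 (R 4.3.3) by quasi-likelihood F-test after TMM scaling and the default filter on low counts, with Benjamini-Hochberg adjustment over all genes of a fit and 1 residual degree of freedom. Cells are not replicates. The p-values rest on the spread between pools, which may be technical and is estimated largely over all genes of a fit. Alternatives were DESeq2 1.42.0, its size factors, no filter, equal numbers of cells, male-typed cells and leaving out 1 control. On simulated data with 200 changed genes, the fit of TM1 to TM11 recovered 37.5% at 2-fold and 96.5% at 4-fold, and that of TM1 30.0% and 97.0%. The simulation gave all genes the same fixed spread and changed only genes above a minimum of expected UMIs. These shares therefore do not apply to genes with few UMIs, such as *Angptl6*, or with controls far apart.

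The members and lists were chosen with earlier results of these data known. By rule, the text names TM1 to TM11 summed, the 3 labels with the highest control mean of each member, other labels with a call, the 3 genes most alike and, of each list, up to 4 called genes. Exact binomial intervals are at 95%, and a count of 0 allows up to 3. Upstream sequences come from RefSeq (GRCm38.p6), which matched 4 of 5 members, and gene positions from the GENCODE annotation of GRCm38.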

Additional observations from a re-analysis of the deposited data

Results flagged for a closer look

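The genotype effect of a member differed between labels in 10 of 39 tests of a member in 8 pairs of labels (edgeR quasi-likelihood test of the difference with the library as a block, chosen after seeing the data), where 0.292% to 4.24% of all genes were called. The pairs of labels were also picked with the values of the members known, so this count cannot be set against the shares of all genes. For *Angptl7* the difference was -1.36 for TM4 minus TM1, -2.76 for TM5 minus TM1, -3.48 for TM10 minus TM1 and -1.34 for TM4 minus cluster 13. For *Angptl1* it was 1.42 for TM4 minus TM1, 1.11 for TM4 minus cluster 13, -2.16 for TM9 minus TM1 and 4.94 for cluster 8 minus TM8, the last resting on very few *Angptl1* UMIs in cluster 8. It was 2.32 for *Angptl2* (TM10 minus cluster 20) and -1.34 for *Angptl4* (cluster 8 minus TM8).

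Called cells that carry no label hold members too. These are cells that the authors left out for few genes or UMIs, many mitochondrial reads or as predicted doublets. In *Angpt1*ΔNC they held 37.0 *Angptl2* UMIs in every 1000000 (controls 27.2 and 31.5), 40.9 of *Angptl4* (controls 34.2 and 40.3) and 4.76 of *Angptl6* (controls 2.81 and 3.23), in each case above both controls, whereas in the labelled cells of the same library these genes stood below both controls at 16.3, 19.8 and 1.43. The other 2 members went the opposite way in the unlabelled cells, with *Angptl1* at 4.71 (controls 19.5 and 23.8) and *Angptl7* at 15.9 (controls 66.0 and 101).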

How the results depend on the processing

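The mutant is 1 library, so its own spread was not measured, and shares of positive cells follow depth. Over all results and alternatives, 198 kept their direction and call or moved by less than the spread of the controls, 41 moved, 17 lost a call, 6 gained one and 7 turned.

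DESeq2 called 629 genes over TM1 to TM11 against 1251, no filter on low counts gave 2441 and equal numbers of cells 744. Of the 13 calls of a member in a label, DESeq2 made 4. For *Angptl4* over TM1 to TM11 the log2 fold change became a call at -0.51 without the filter and at -0.87 in male-typed cells, was -0.24 with equal weight for each TM label, and ran from -0.76 to -0.18 when a control was left out. For *Angptl7* it became a call at -0.46 without the filter and at -1.27 without TM1, and ran from -0.741 to -0.0769 when a control was left out.

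The direction turned for *Angptl2* in cluster 13 (-0.0246 without the filter, -0.0760 with equal numbers of cells, from -0.0209 to 0.194 when a control was left out), *Angptl7* in cluster 13 (0.378 in male-typed cells, from -0.375 to 0.306 when a control was left out), *Angptl7* in TM1 (from -0.622 to 0.529 when a control was left out) and *Angptl4* in TM8 (from -0.382 to 0.153), none of them called.

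Thinning to 1000 UMIs moved the control mean of the share of positive cells to 35.5% for *Angptl1* and 10.9% for *Angptl2* in cluster 13, 8.13% for *Angptl4* in TM8, 0.893% for *Angptl6* in cluster 25 and 88.5% for *Angptl7* in TM1. Counting cells from 2 UMIs gave 62.7%, 22.1%, 8.45% and 0% for the first 4. Pooled UMIs gave *Angptl1* 4.64 per 10,000 in cluster 13, and *Angptl6* in cluster 25 was at 0 in male-typed cells and at 0 in cells of at least 2000 UMIs. In *Angpt1*ΔNC alone, r was 0.72 for *Angptl1* with *Tac1*, 0.76 for *Angptl2* with *Tvp23b*, 0.24 for *Angptl6* with *2310039H08Rik* and 0.79 for *Angptl7* with *Kcns1*. The cause of these changes was not tested. No paired analysis was possible because the groups share 1 replicate number and the mutant has 1 library.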

Other observations

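In TM1 cells of the controls, *Angptl1* was detected in 95 of 99 cells with an *Angptl2* UMI (96.0%) and in 47 of 60 without (78.3%) in control 1, and in 82 of 86 (95.3%) and 58 of 62 (93.5%) in control 2. The cells with *Angptl2* were deeper, with medians of 14074 against 11976 UMIs in control 1. In TM4, *Angptl7* was found in 43.5%, 69.2% and 26.8% of the 23, 26 and 41 cells with *Angptl1* (control 1, control 2 and *Angpt1*ΔNC) and in 27.8%, 30.6% and 12.2% of those without. In TM5 it was found in 83.3%, 58.3% and 13.6% of 12, 36 and 22 cells with *Angptl1* and in 33.3%, 41.2% and 19.2% of those without, so that the mutant went the other way there.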
